A study of Mus musculus with 39 samples.

Results

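The genes of the mitochondrial ribosomal proteins were followed across all 6 groups of a study of mouse microglia, the resident macrophages of the brain. They are the entries whose symbol begins with Mrpl or Mrps followed by a number, and 77 of the 10915 entries of the expression table qualified. The libraries came from female C57BL/6J mice, either hemizygous for APP23, a transgene that expresses mutant human amyloid precursor protein (APP) under the neuronal Thy-1 promoter, or wildtype. At 3 months of age the mice received 4 daily intraperitoneal injections: all vehicle (PBS), 1 of lipopolysaccharide (LPS) at 500 µg/kg and the rest vehicle (1xLPS), or 4 of LPS at that dose (4xLPS). Microglia were isolated by cell sorting at 9 months and their RNA was sequenced. The question of the design is whether an early bacterial stimulus leaves a lasting difference in these cells, with or without amyloid pathology. Wildtype mice gave 9 PBS, 9 1xLPS and 6 4xLPS libraries, and APP23 mice gave 6, 5 and 4 in the same order. The transgene is driven in neurons, so the sorted cells are not the cells it is expressed in. Whether each library is from its own mouse is not stated in the labels, so the spread behind every p-value may be partly technical.

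Mitochondria keep a ribosome of their own, which translates the few messages encoded in mitochondrial DNA. All of its products are core subunits of the respiratory chain and of ATP synthase. The proteins of its large subunit (Mrpl) and small subunit (Mrps) are encoded in the nucleus, made in the cytosol and imported, and they assemble on ribosomal RNA made inside the organelle. Some descend from proteins of the bacterial ribosome and others were added in the mitochondrial lineage. The symbols follow this only in part: Mrps18a and Mrps30 sit in the large subunit, and Mrps36 is now known as a subunit of the α-ketoglutarate dehydrogenase complex. By these roles 50 of the 77 were large-subunit genes, 26 were small-subunit genes and Mrps36 was neither. Of the 76 ribosomal genes, 47 have a bacterial counterpart and 29 are specific to mitochondria.

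The deposited values are on a log scale, taken here as base 2, and the authors had normalized them and, per the sheet name, corrected them by surrogate variable analysis. Depth cannot be read from such values, and the sources used here do not say whether they were corrected for transcript length, so the order of genes by level is not an order of abundance. The libraries of a group were very alike (correlations 0.999158 to 0.99965), and 9 of the 33 directions in which libraries could vary within groups held no variance. The tests below count only the 24 that held variance; counting all 33 makes every test more lenient, and those counts are given beside the others. The 8 microglial markers measured had mean levels between 10.4 for Aif1 and 13.7 for Csf1r, the latter the highest of all entries. Markers of other cells reached 10.1 for the oligodendrocyte gene Mbp, and none of 3 neutrophil markers was measured.

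The mean level of the 77 genes over all libraries ran from 3.73 for Mrps36, close to the lowest value in the table (3.46), to 10.19 for Mrpl17, a large-subunit protein. Their median was 8.64, against 9.26 over all entries. In all, 61 of the 77 lay at or above the lower quartile of all entries (8.08) and 14 lay above the median. The median standard deviation of a member within groups was 0.0306 log2 units, against 0.0407 over all entries, and the median distance between a member's highest and lowest group mean was 0.0386, against 0.0509. Members and entries were not matched by level here. The residual standard deviation was 0.0096 for Mrps36, lowest in level, and 0.0527 for Mrpl17, highest in level. Whether the lower levels of the members account for their smaller spread was not tested. The widest such distance was 0.104, for Mrpl19 of the large subunit.

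Promoters are shown for 3 genes that recur below: Mrps9, whose protein lies in the head of the small subunit and whose F test gave the smallest p of the 77; Mrpl32, a large-subunit protein processed on import by the m-AAA protease; and Mrps12, the counterpart of the bacterial decoding protein S12. Each sequence runs from 250 bases before to 50 bases after the gene's RefSeq start (GRCm38.p6, 5′ to 3′ on the gene's strand). For Mrpl32 this start is not the GENCODE start from which the gene's coordinates and neighbour distance below were taken. Capitals mark letters searched on both strands, namely GCATGCG for NRF1, CCGGAAG for ETS factors such as GABP, and AGATGGC for YY1, all of them factors known for binding promoters of mitochondrial genes. The Mrps9 promoter (chr1:42850983-42851282, plus strand) holds none of them, that of Mrpl32 (chr13:14612988-14613287, minus strand) holds NRF1 and YY1 letters, and that of Mrps12 (chr7:28741772-28742071, minus strand) holds YY1 and ETS letters.
Mrps9: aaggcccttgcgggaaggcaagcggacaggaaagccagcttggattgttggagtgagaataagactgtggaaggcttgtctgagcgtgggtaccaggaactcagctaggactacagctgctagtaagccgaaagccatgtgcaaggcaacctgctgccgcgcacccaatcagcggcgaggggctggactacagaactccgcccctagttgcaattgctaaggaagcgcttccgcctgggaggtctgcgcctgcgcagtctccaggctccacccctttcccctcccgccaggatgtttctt
Mrpl32: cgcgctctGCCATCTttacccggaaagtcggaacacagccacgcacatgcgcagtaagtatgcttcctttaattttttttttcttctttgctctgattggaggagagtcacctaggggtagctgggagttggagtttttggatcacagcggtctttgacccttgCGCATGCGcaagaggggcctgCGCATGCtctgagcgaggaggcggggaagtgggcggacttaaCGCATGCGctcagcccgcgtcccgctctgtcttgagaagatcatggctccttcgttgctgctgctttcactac
Mrps12: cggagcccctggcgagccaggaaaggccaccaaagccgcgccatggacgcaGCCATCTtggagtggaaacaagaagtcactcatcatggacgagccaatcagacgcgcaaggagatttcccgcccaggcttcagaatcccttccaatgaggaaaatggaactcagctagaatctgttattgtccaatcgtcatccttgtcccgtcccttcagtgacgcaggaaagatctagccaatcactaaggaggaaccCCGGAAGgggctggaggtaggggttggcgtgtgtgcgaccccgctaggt
In the Mrpl32 promoter the NRF1 letters overlap their own reverse complement at a pair of places. The YY1 letters of Mrpl32 and Mrps12 lie past the annotated start of a neighbouring gene on the other strand, Psma2 and Sars2. They are thus inside that neighbour. A match of letters is a description of these windows, not evidence of binding.

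Across the 6 groups, no mitochondrial ribosomal protein gene passed the threshold of an adjusted p of 0.05 (limma F test, Benjamini-Hochberg over all entries), where 2.13% of all entries did. At an unadjusted p under 0.05 there were 9 of 77, or 11.7%, against 21.2% of all entries. With all 33 directions counted, 10 of 77 passed, against 21.1% of all entries. The smallest p belonged to Mrps9 (adjusted p = 0.0616), followed by Mrpl16 (0.0901), Mrpl38 (0.110), Mrpl32 (0.129), Mrps28 (0.154) and Mrpl19 (0.179). Mrps9 passed when any 1 of 7 libraries was left out: wildtype PBS replicates 2 and 3, wildtype 1xLPS replicate 3, wildtype 4xLPS replicates 2 and 3, APP23 PBS replicate 3 or APP23 1xLPS replicate 1 (adjusted p from 0.0412 to 0.0498). Without wildtype 1xLPS replicate 9, Mrpl16 passed instead (0.0498).

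**Figure D1:**
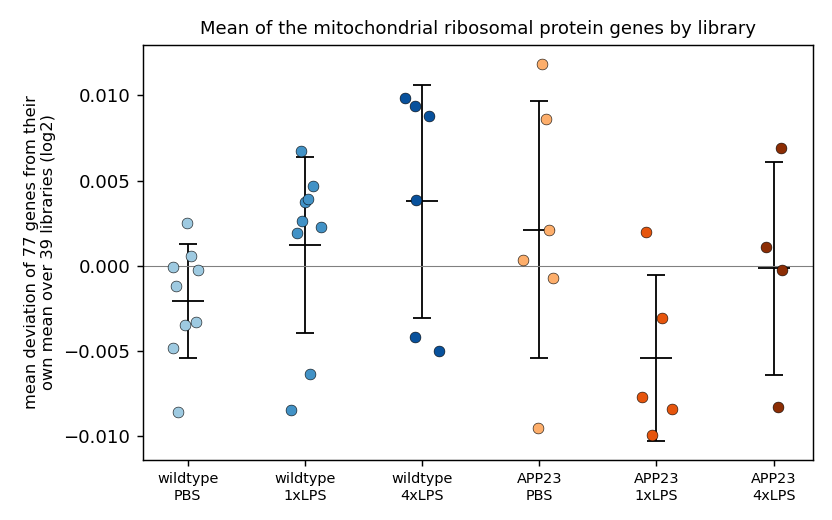
Mean deviation of the mitochondrial ribosomal protein genes from their own means, in log2 units, for each library in the 6 groups; each point is a library and the bars give the group mean and its standard deviation. All groups overlap near 0, and the group means lie between -0.0054 and 0.0038.

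The average level of the genes differed little between groups. Averaged over the members, the deviation from each gene's own mean was -0.0021 ± 0.0033 log2 units in wildtype PBS (SD, n = 9), 0.0012 ± 0.0051 in wildtype 1xLPS (n = 9) and 0.0038 ± 0.0068 in wildtype 4xLPS (n = 6). It was 0.0021 ± 0.0075 in APP23 PBS (n = 6), -0.0054 ± 0.0049 in APP23 1xLPS (n = 5) and -0.0001 ± 0.0063 in APP23 4xLPS (n = 4). The lowest library of all was in APP23 1xLPS (-0.0099) and the highest in APP23 PBS (0.0119), and the groups overlapped. Since these are sorted bulk samples, fewer cells of a type and less RNA per cell cannot be told apart.

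Without LPS, 2 of the 77 genes passed the threshold between APP23 and wildtype microglia, 1 higher and 1 lower. That share was close to the 2.51% of all entries that passed (1.36% higher and 1.15% lower). Mrpl38, a mitochondria-specific protein of the large subunit's central protuberance, was lower in APP23. Mrps28, a small-subunit protein related to bacterial S1, was higher. Neither difference reached 0.1 log2 units.

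Mrpl38 lies on chromosome 11 from 116131817 to 116138868 on the minus strand (GRCm38, GENCODE M21). Its level in the 9 wildtype PBS libraries had a lowest value of 9.263, a median of 9.287 and a highest of 9.334. In the 6 APP23 PBS libraries these were 9.207, 9.221 and 9.255, so the groups did not overlap. The means were 9.226 ± 0.0193 (SD, n = 6) in APP23 PBS and 9.291 ± 0.0220 (n = 9) in wildtype PBS, a difference of -0.065 log2 units (SE 0.0168, 95% interval -0.0997 to -0.0308, adjusted p = 0.0361 by limma). All 6 APP23 PBS libraries lay below the wildtype PBS mean.

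Mrps28 lies on chromosome 3 from 8802146 to 8923918 on the minus strand. The 9 wildtype PBS libraries had a lowest level of 7.978, a median of 7.997 and a highest of 8.0356. The 6 APP23 PBS libraries had a lowest level of 8.0358, a median of 8.050 and a highest of 8.092, so the groups just failed to overlap. The means were 8.056 ± 0.0199 (SD, n = 6) and 8.003 ± 0.0186 (n = 9), a difference of 0.054 log2 units (SE 0.0144, 95% interval 0.0242 to 0.0832, adjusted p = 0.0427 by limma), with 6 of 6 libraries above the wildtype PBS mean. Among all entries 1.66% did not overlap between these groups, and these were the 2 members that did not.

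Both calls depended on single libraries. The Mrpl38 call was lost without APP23 PBS replicate 1, 4 or 6 (adjusted p = 0.0596, 0.0614 and 0.0674). The Mrps28 call was lost without APP23 PBS replicate 1, 2 or 4 (0.0557, 0.0851 and 0.0702), and without wildtype PBS replicate 2, 4, 6 or 9 (0.0506, 0.05001, 0.0532 and 0.0595). The direction held in all 39 such fits for both genes, but it could not have changed, since the groups did not overlap. In the same comparison Ccr2, a marker of monocytes, was lower in APP23 PBS by 0.23 log2 units (SE 0.0569, adjusted p = 0.0329 by limma). Of 6 markers of border macrophages and monocytes 3 were measured, and their mean ranged from 7.54 to 7.65 in APP23 PBS and from 7.58 to 7.78 in wildtype PBS libraries; their part in the results for Mrpl38 and Mrps28 was not tested.

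Of the 77 genes, 43 had a positive difference in APP23 PBS against wildtype PBS, and the median was 0.0045 log2 units; of all entries 52.8% were positive, with a median of 0.0021. At an unadjusted p under 0.05 there were 6 genes (7.79%, against 18.1% of all entries). Besides those called these were Mrps9 (-0.048), Mrpl32 (0.042), Mrps24 (0.035) and Mrps36 (-0.011), none of which passed the threshold. The more lenient count over 33 directions gave 2 higher and 2 lower, adding Mrpl32 and Mrps9, against 9.62% of all entries. For 76 of the 77 the 95% interval of the difference lay within 0.1 log2 units of 0.

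**Figure D2:**
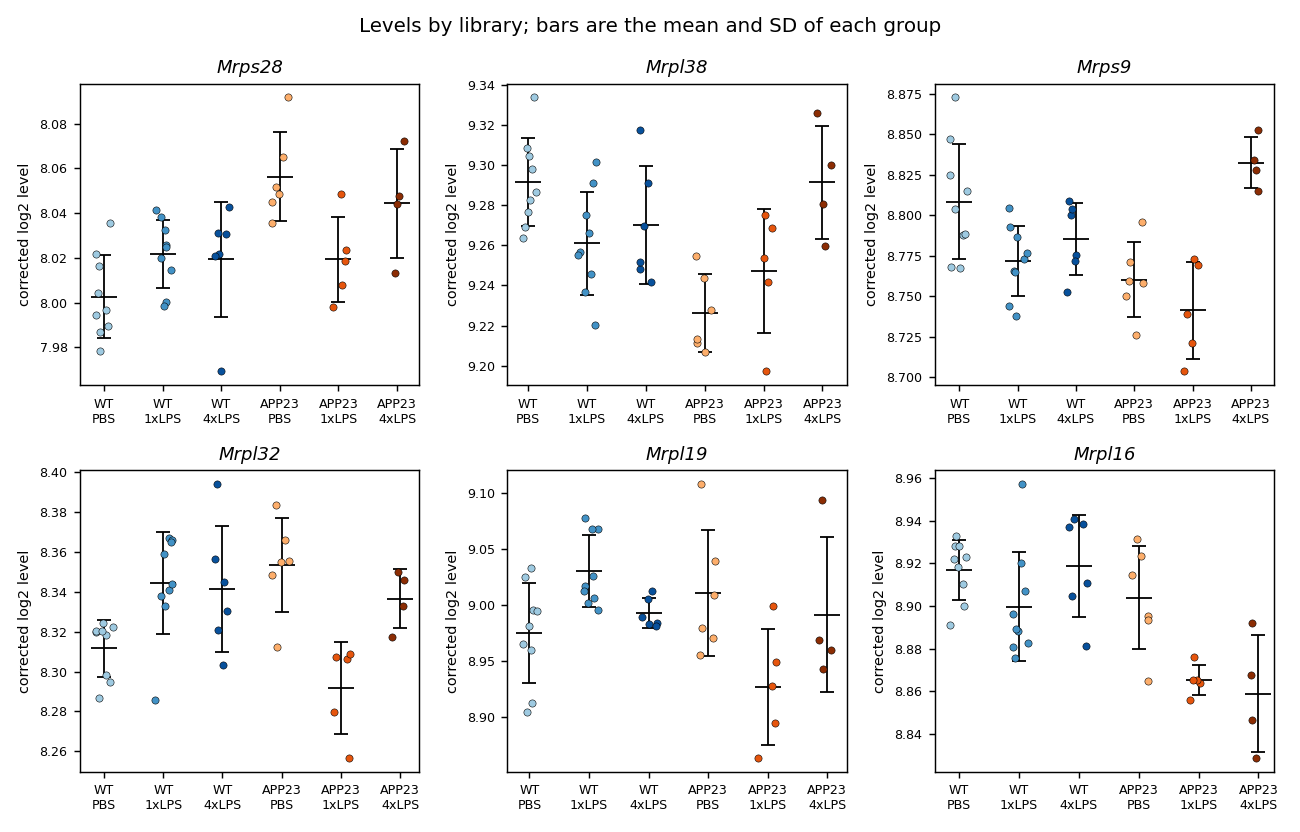
Level of 6 mitochondrial ribosomal protein genes in every library of the 6 groups, in log2 units; points are libraries and bars the group mean and standard deviation, and each axis covers only a small span of levels. By group mean Mrpl38 is lowest and Mrps28 highest in APP23 PBS, and Mrps9 is highest in APP23 4xLPS.

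In wildtype microglia none of the 77 genes passed between treatments. After 1xLPS against PBS no member passed, where 0.44% of all entries did. There were 7 at an unadjusted p under 0.05 (9.09%, against 14.9% of all entries). A positive difference was seen in 45 members (58.4%, against 52.3% of all entries), with a median of 0.0038 log2 units, against 0.0014 over all entries. With 33 directions the members' count was still 0, against 6.05% of all entries. The smallest p was that of Mrps23, a small-subunit protein. Its level was 9.052, 9.121 and 9.161 (lowest, median and highest of 9) after PBS and 9.052, 9.062 and 9.136 (of 9) after 1xLPS, so the groups overlapped. The difference was -0.043 log2 units (adjusted p = 0.197 by limma).

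After 4xLPS against PBS in wildtype mice no member passed either, where 1.51% of all entries did. There were 6 at an unadjusted p under 0.05 (7.79%, against 17.4%). Positive differences numbered 48 (62.3%, against 53.5% of all entries), with a median of 0.0073, against 0.0023 over all entries. With 33 directions Mrpl55, Mrps24 (0.042) and Mrpl24 (0.040) were higher and Mrpl51 lower, a count of 4 against 8.95% of all entries. No member separated the groups without overlap, where 1.53% of all entries did. Mrpl55, a large-subunit protein, had the smallest p. Its level was 8.708, 8.757 and 8.789 (lowest, median and highest of 9) after PBS and 8.781, 8.803 and 8.829 (of 6) after 4xLPS. All 6 treated libraries lay above the PBS mean, with a difference of 0.054 log2 units (95% interval 0.0197 to 0.0887, adjusted p = 0.0888 by limma), and the groups overlapped at their edges. Mrpl51, also of the large subunit, had a difference of -0.055 (adjusted p = 0.0921).

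Between 4xLPS and 1xLPS in wildtype mice no member passed, where 0.0183% of all entries did, and 1 had an unadjusted p under 0.05 (1.30%, against 9.13%). The count over 33 directions was also 0, against 0.66% of all entries. Positive differences numbered 43 (55.8%, against 51.5% of all entries), with a median of 0.0013, against 0.0009 over all entries. The gene with the smallest p was Mrpl51, with a difference of -0.047 log2 units (adjusted p = 0.398 by limma). Its level was 8.136, 8.194 and 8.221 (lowest, median and highest of 9) after 1xLPS and 8.098, 8.135 and 8.193 (of 6) after 4xLPS, and the groups overlapped. Exons of Mrpl51 overlap the microRNA gene Mir3098 on the same strand. In each of the 3 wildtype comparisons 76 of 77 intervals lay within 0.1 log2 units of 0.

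**Figure D3:**
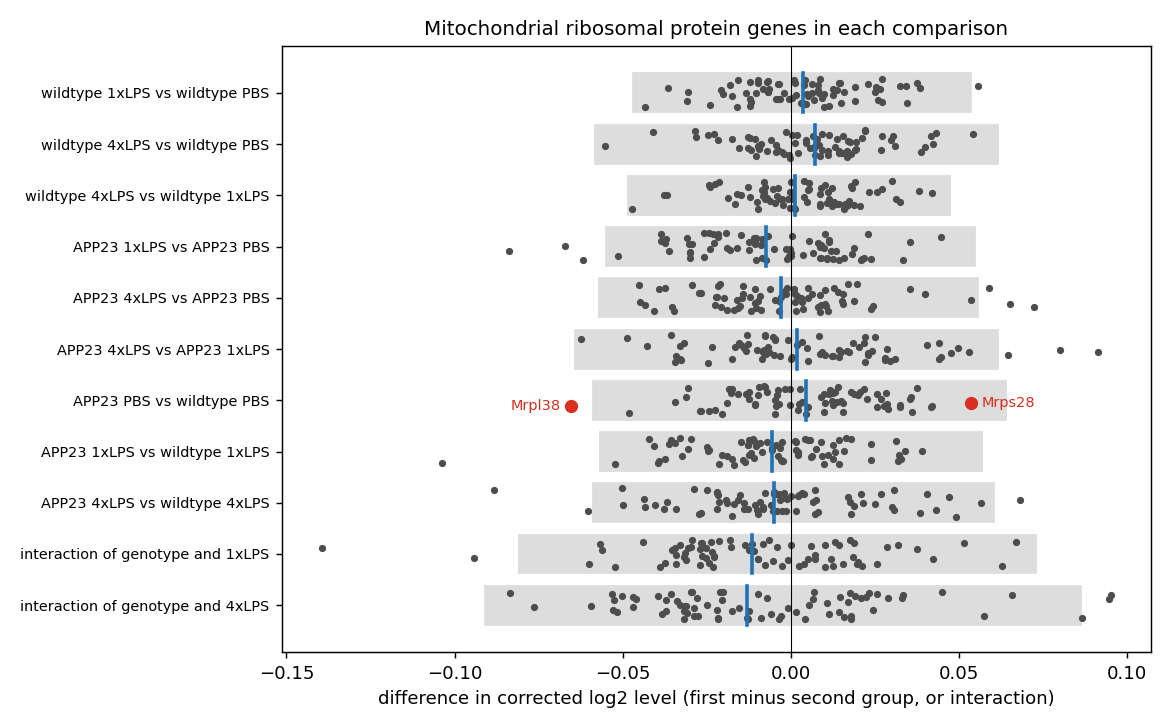
Differences of the mitochondrial ribosomal protein genes in the 11 comparisons, in log2 units, with grey boxes for the central range of all entries (from the 5th to the 95th percentile) and blue lines for the members' medians; each point is a gene. The points centre near 0 in every comparison, and the called genes are Mrpl38 and Mrps28 in APP23 PBS against wildtype PBS.

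In APP23 microglia no member passed in any of the 3 comparisons between treatments, and neither did any other entry (0%). The comparison of 1xLPS with PBS gave 5 members at an unadjusted p under 0.05 (6.49%, against 8.47% of all entries). There 32 differences were positive (41.6%, against 49.4% of all entries), with a median of -0.0075 log2 units (against -0.0003). The comparison of 4xLPS with PBS gave 6 (7.79%, against 7.62%), with 35 positive (45.5%, against 50.9%) and a median of -0.0030 (against 0.0005). The comparison of 4xLPS with 1xLPS gave 8 (10.4%, against 9.74%), with 41 positive (53.2%, against 52.0%) and a median of 0.0018 (against 0.0013). Over 33 directions these comparisons called Mrpl32 (lower), none and Mrps9 (higher), against 0.715%, 0.247% and 1.48% of all entries.

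Mrpl32 had the smallest p of the members after 1xLPS in APP23. It lies on chromosome 13 from 14608184 to 14613165 on the minus strand, next to Psma2, a proteasome gene whose start is 75 bases away on the other strand. The 5 libraries of APP23 1xLPS had levels of 8.306, 8.280, 8.309, 8.257 and 8.307. The 6 of APP23 PBS had a lowest level of 8.313, a median of 8.355 and a highest of 8.383, so all the 1xLPS libraries lay below all the PBS libraries. The difference was -0.062 log2 units (SE 0.0182, 95% interval -0.0990 to -0.0243), with an adjusted p of 0.300 by limma. Mrps33 of the small subunit also separated the groups, by -0.030 (adjusted p = 0.553), so 2 of the 77 genes did not overlap, against 1.97% of all entries.

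Mrps9 had the smallest p among the members after 4xLPS in APP23, against both other APP23 groups. It lies on chromosome 1 from 42851233 to 42905683 on the plus strand. Its 4 libraries of APP23 4xLPS had levels of 8.834, 8.853, 8.815 and 8.828, and the 5 of APP23 1xLPS had 8.773, 8.769, 8.704, 8.739 and 8.721. The APP23 PBS libraries had a lowest level of 8.726, a median of 8.759 and a highest of 8.796. All the 4xLPS libraries thus lay above all other APP23 libraries. The difference was 0.072 log2 units against PBS (SE 0.0215, adjusted p = 0.390 by limma) and 0.091 against 1xLPS (SE 0.0224, adjusted p = 0.165). These comparisons share the 4xLPS libraries. The groups did not overlap for 5 members in each of the comparisons of 4xLPS with PBS and with 1xLPS, against 2.44% and 5.73% of all entries. They were Mrps9, Mrps35, Mrpl36, Mrpl37 and Mrpl38 against PBS, and Mrps9, Mrps35, Mrpl36, Mrpl32 and Mrps14 against 1xLPS. Mrpl38 rests on the same APP23 PBS libraries as above, with 9.260, 9.280, 9.300 and 9.326 after 4xLPS and a difference of 0.065 (adjusted p = 0.390).

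The genotypes were also compared after LPS. After 1xLPS no member passed, where 0.33% of all entries did, and 7 had an unadjusted p under 0.05 (9.09%, against 12.9%). All 7 had negative differences, but the signs of all entries under that p were not counted. The median over the members was -0.0055 log2 units and 31 of 77 were positive, against a median near 0 and 49.98% of all entries. Over 33 directions Mrpl19 and Mrpl32 were lower and none was higher, against 4.34% of all entries. The groups did not overlap for Mrpl13 alone (-0.041, adjusted p = 0.237), against 1.67% of all entries. Mrpl19, of the large subunit, had the smallest p. Its 5 libraries of APP23 1xLPS had levels of 8.949, 8.864, 8.999, 8.928 and 8.895, and the 9 of wildtype 1xLPS had a lowest level of 8.996, a median of 9.018 and a highest of 9.078, so the groups met at 1 library. The difference was -0.104 log2 units (SE 0.0285, 95% interval -0.162 to -0.0454, adjusted p = 0.0881 by limma). Exons of Mrpl19 overlap those of Gcfc2 on the other strand, and the sources used here do not say whether the counting used strand.

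After 4xLPS no member and no other entry passed between genotypes (0%), and 11 members had an unadjusted p under 0.05 (14.3%, against 9.54% of all entries). Of these 4 were positive, and the signs of all entries under that p were not counted. The median was -0.0051 and 29 of 77 were positive, against -0.0006 and 49.1% of all entries. Over 33 directions Mrpl16 alone was lower, against 1.57% of all entries. The groups did not overlap for Mrpl36 (0.041), Mrps9 (0.047) and Mrps21 (-0.021), 3 of the 77, against 3.38% of all entries. Mrpl16, the counterpart of bacterial L16, had the smallest p. Its libraries of APP23 4xLPS had levels of 8.846, 8.829, 8.868 and 8.892, and the 6 of wildtype 4xLPS had a lowest level of 8.881, a median of 8.924 and a highest of 8.941, so the groups overlapped slightly. The difference was -0.060 log2 units (SE 0.0185, adjusted p = 0.244 by limma).

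Interactions asked whether the difference after LPS itself differed between genotypes. For 1xLPS no member passed, where 0.0366% of all entries did, and 7 had an unadjusted p under 0.05 (9.09%, against 12.2%). The median was -0.0115 log2 units and 28 of 77 were positive, against -0.0016 and 48.2% of all entries. Mrpl32 had the smallest p: its difference after 1xLPS was 0.032 in wildtype and -0.062 in APP23, an interaction of -0.094 (SE 0.0231, adjusted p = 0.101 by limma). For 4xLPS no member passed, where 0.522% of all entries did, and 9 had an unadjusted p under 0.05 (11.7%, against 14.6%). The median was -0.0129 and 29 of 77 were positive, against -0.0017 and 48.5%. Mrps9 had the smallest p: its difference after 4xLPS was -0.023 in wildtype and 0.072 in APP23, an interaction of 0.095 (SE 0.0278, adjusted p = 0.110). The count over 33 directions was 2 for 1xLPS (Mrpl32 and Mrpl19, both negative), against 3.39% of all entries. For 4xLPS it was 3 (Mrps9 and Mrpl38 positive, Mrpl55 negative), against 5.3%. Intervals were wider here than in the comparisons of pairs of groups: 61 and 56 of the 77 lay within 0.1 log2 units of 0 for 1xLPS and 4xLPS.

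**Figure D4:**
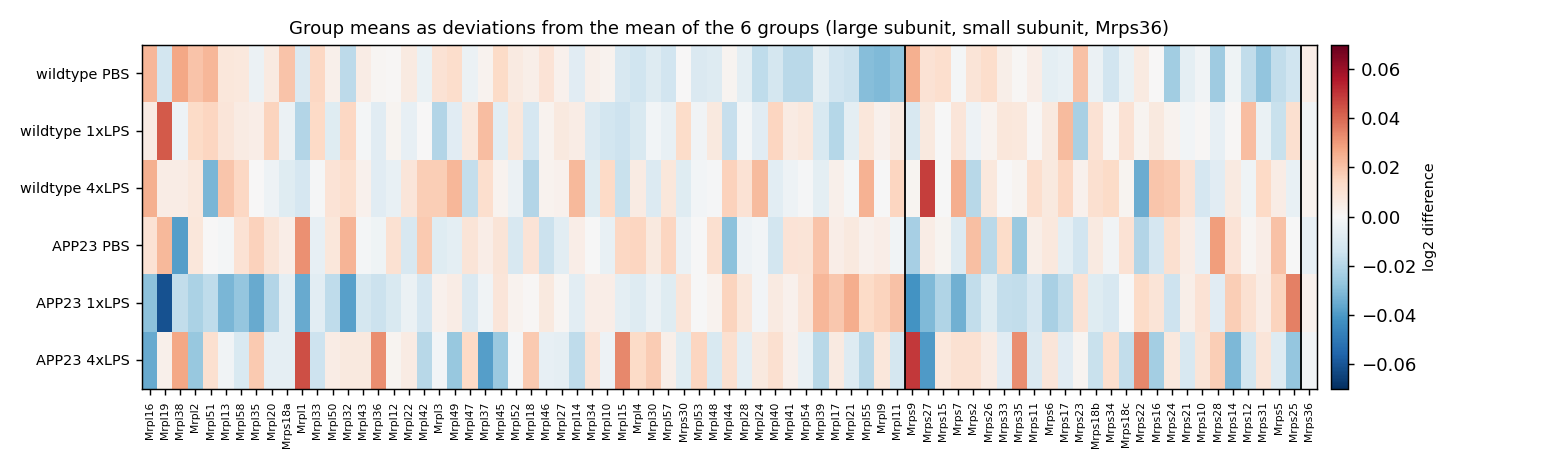
Group means of each of the 77 mitochondrial ribosomal protein genes as a deviation from the mean of the 6 groups, in log2 units, by colour, with the 6 groups in rows and genes in columns by subunit, ordered within it by the difference of APP23 1xLPS from wildtype PBS. No group is of 1 colour throughout, and the widest range between group means is 0.104, for Mrpl19.

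The parts of the ribosome were described separately. For the interaction with 4xLPS the median was -0.0093 log2 units over the 50 large-subunit genes, of which 20 were positive, and -0.0209 over the 26 small-subunit genes, of which 8 were positive. For the interaction with 1xLPS it was -0.0181 over the 47 genes with a bacterial counterpart, of which 14 were positive, and -0.0076 over the 29 specific to mitochondria, of which 13 were positive. In APP23 PBS against wildtype PBS the medians were 0.0117 with a bacterial counterpart and -0.0003 without. These comparisons are a selection with wide gaps, and the medians lay closer together in others. For the interaction with 4xLPS they were -0.0152 with a bacterial counterpart and -0.0129 without. In APP23 4xLPS against APP23 PBS they were -0.0034 and -0.0030 in the same order. In wildtype 4xLPS against wildtype 1xLPS they were 0.0009 for the large subunit and 0.0032 for the small subunit. No test was made between these classes.

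Members with known special roles were read regardless of their result. The paralogs Mrps18a, Mrps18b and Mrps18c replace a single bacterial protein, Mrps18a in the large subunit and the others in the small subunit, and their F tests gave adjusted p-values of 0.607, 0.605 and 0.671 by limma. Mrpl12, which also binds the mitochondrial RNA polymerase, had 0.947. Mrpl58, a peptide-releasing hydrolase built into the large subunit, had 0.569. Mrpl11, which helps form the binding site for translation factors, had 0.480. Mrps12 had 0.431, and it was higher than the PBS mean in all 9 wildtype libraries after 1xLPS, by 0.039 log2 units on average (unadjusted p = 0.0153, adjusted p = 0.213). The 2 groups overlapped, with PBS libraries up to 8.533 and 1xLPS libraries from 8.507. Mrps18a went the other way, with all 9 wildtype 1xLPS libraries (highest 9.120) below its PBS mean of 9.128. How many of all entries lie on 1 side in this way was not counted. Exons of Mrpl12, Mrpl58 and Mrps18b overlap a gene on the other strand.

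Other genes of mitochondrial translation were read the same way. Of 16 translation factors and partners, Oxa1l, which inserts newly made proteins into the inner membrane, was higher in APP23 PBS than in wildtype PBS by 0.077 log2 units (SE 0.0187, adjusted p = 0.0315 by limma), and no other passed in any of the 11 comparisons. None passed in any comparison among 25 genes of ribosome assembly and RNA modification, 21 aminoacyl-tRNA synthetase genes, 10 genes of mitochondrial transcription and genome copying, and 9 regulators measured out of 10. The same held for the 5 mitochondrial ribosomal genes with other names (Dap3, Gadd45gip1, Chchd1, Aurkaip1 and Ptcd3). Among 75 cytosolic ribosomal protein genes, Rpl37a and Rpl19 were higher in wildtype 4xLPS than in wildtype PBS, by 0.037 (adjusted p = 0.0226) and 0.019 (adjusted p = 0.0322). Rpl37a also had a negative interaction with 4xLPS (-0.059, adjusted p = 0.0336). The mean levels of Rpl37a and Rpl19 were low, 5.99 and 4.41, under the lower quartile of all entries (8.08). Reads of cytosolic ribosomal genes can be shared with their many processed copies, so single values are uncertain.

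Within groups the members moved together only weakly. Over 2926 pairs of members the median correlation of deviations from group means was 0.0338, and 56.4% were positive; between members and all other entries these were 0.0059 and 51.0%. Cytosolic ribosomal protein genes had a median of 0.0353 with each other and of 0.0241 with the members. The highest pair was Mrpl37 with Mrpl53 (r = 0.645), then Mrpl37 with Mrps26 (0.628) and Mrpl49 with Mrpl27 (0.608). All of these share the same 39 libraries and the authors' correction, whose part in them was not tested. For Mrps9, the most similar entries over the 39 libraries were Nxt2 (0.723), Gm15506 (0.646), Zfp994 (0.640), Arhgap27 (0.631) and Swap70 (0.626). Over the 6 group means they were Nxt1 (0.997), Slc10a7 (0.996), Faap100 (0.991), 3110009E18Rik (0.986) and Carm1 (0.981). These are the highest picked from all entries, and over only 6 points values near 1 can arise by chance.

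The authors' deposited table of co-expression modules held 78 members, Mrpl23 being the addition. By the authors' deposited table, 23 members (29.5%) were in the turquoise module, against 15.5% of all genes, and 25 (32.1%) were in none, against 26.0%. It put 7 members each in the blue and brown modules (8.97%, against 13.8% and 11.8%) and 1 in the green module (1.28%, against 7.27%). The members' median correlation with the turquoise module was 0.111, against -0.0037 over all genes, in the authors' deposited table. Of the 78 members 51 were positive, against 49.5% of all genes. The 23 members placed in the module are part of these values, which thus partly repeat their share.

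**Figure D5:**
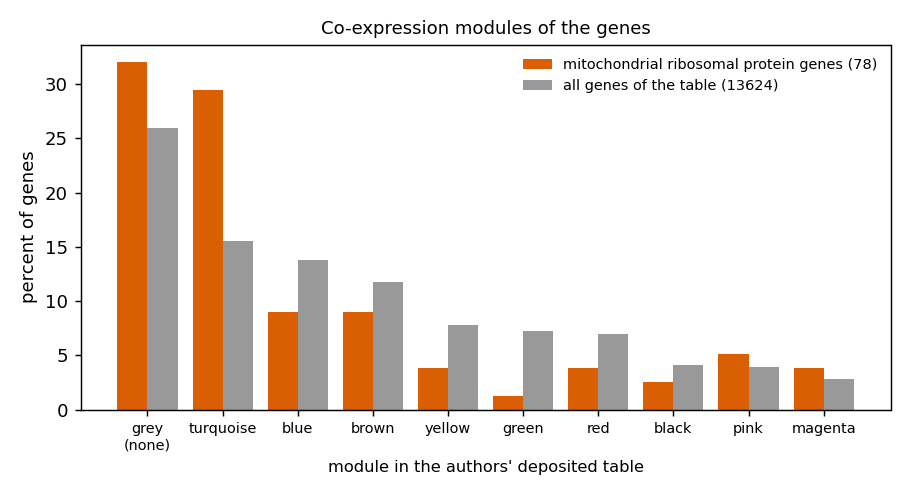
Share of the mitochondrial ribosomal protein genes and of all genes in each co-expression module of the authors' deposited table, in percent. The turquoise module holds 29.5% of the members and 15.5% of all genes.

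The same deposited table gives each gene's correlation with a trait, which followed membership of APP23 1xLPS most closely across genes (r = 0.986). By the authors' deposited table, 14 of 78 members had an unadjusted p under 0.05 for it, against 18.4% of all genes. Of these, 13 were negative and 1, Mrpl21 (0.351), was positive. How all genes under that p split by sign was not counted, so this split has no baseline. The lowest in the authors' deposited table were Mrpl13 (-0.578), Mrpl32 (-0.524) and Mrps7 (-0.482), and the median over the members was -0.0743, against 0.0052 over all genes. These come from the same libraries as the comparisons above.

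The 77 genes lay on 17 chromosomes, 11 of them on chromosome 11. For 18 of them (23.4%) another protein-coding gene started within 1000 bases on the opposite strand, pointing away, against 11.4% of the 10191 protein-coding entries placed. In 16 such pairs both genes were measured, and their correlation within groups ran from -0.354 for Mrps5 with Zfp661 to 0.542 for Mrpl51 with Ncapd2, with a median of 0.0878. It was 0.212 for Mrpl32 with Psma2, and 0.167 for Mrps12 with Sars2, the mitochondrial seryl-tRNA synthetase gene that starts 172 bases away. Exons of 32 members overlapped those of another gene, for 6 of them on the same strand.

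RefSeq promoters were matched for 68 of the 77. The ETS letters were in 36.8% of them, against 20.3% of the 8535 promoters of table entries and 9.12% of all 27025 promoters. The YY1 letters were in 17.6%, against 7.93% and 6.45%, and the NRF1 letters in 11.8%, against 7.14% and 3.64%. At least 1 of these stood in 54.4% of members' promoters, against 31.6% and 17.7%. The E-box letters CACGTG were in 7.35%, against 10.8% and 7.24%, and the nuclear receptor half-site AGGTCA in 16.2%, against 11.9% and 16.04%. At least 1 of the NRF1, ETS and YY1 letters stood in 54.5% of the promoters of members in the turquoise module and in 54.3% of those of other members. The median GC content was 58.3% in members' promoters and 61.0% in those of table entries.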

How the data were processed

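Per the labels' protocols, RNA of sorted microglia was amplified, made into Nextera XT libraries and run with 3 libraries per lane; lanes are not assigned to samples. The submitters' processing notes name STAR 2.3.060, HOMER, DESeq2 and limma, with the build mm10, but not their roles. The authors deposited log2 values (base taken as 2; not given in the sources used here) that were normalized and, per the sheet name, corrected by surrogate variable analysis. Their second table, per the file headers, holds score columns (correlations of each gene with modules and a trait), unadjusted p-values by the authors and module names. Of the expression columns, 1 matched no label and was not used. Depth is unknown.

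The fit per entry (limma 3.58.1 under R 4.3.3) had 6 group means over 39 libraries, the 9 empty directions as covariates and a mean-variance trend, giving 9 contrasts of pairs of groups, 2 interactions and an F test. P-values were adjusted by Benjamini-Hochberg over 10915 entries, and adjusted p under 0.05 was called. No filter on low values or pseudocount was used. The script was tested on simulated data. Alternatives counted all 33 directions, left out the trend, left out entries under the lower quartile, centred libraries on their medians, added the replicate number, used only 2 groups, or left out each library in turn.

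Named were called members, the member with the smallest p in each other comparison, and 7 members fixed by role. Values of other members with an unadjusted p under 0.05 were added after they were seen. Genes of the 7 other lists were named where called. Members and lists were chosen with earlier results of these data known. Coordinates are from GENCODE M21 (GRCm38) and count from 1; promoters are from RefSeq (GRCm38.p6).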

Additional observations from a re-analysis of the deposited data

Results flagged for a closer look

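Within the groups of 4 to 9 libraries, the named genes were searched for a library standing far from the others. The measure was the gap to the nearest library as a share of the group's range. Of 96 groups 3 were found, and chance gives about 1 in 20. In Mrps23 the highest wildtype 1xLPS library, replicate 3, was at 9.136, with the next at 9.088 (gap over range 0.575, n = 9). In Mrpl32 the lowest wildtype 1xLPS library, replicate 8, was at 8.286, with the next at 8.333 (0.578, n = 9). In Mrps28 the lowest wildtype 4xLPS library, replicate 4, was at 7.969, with the next at 8.021 (0.700, n = 6).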

How the results depend on the processing

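No named difference between groups changed sign under any alternative. Counting all 33 directions, leaving out the trend or the low entries, and fitting only 2 groups leave the differences themselves unchanged. Their sign could therefore not change in those fits. Counts of called members and F tests have no sign, and several counts moved. Counting all 33 directions, those without variance included, the called members numbered 10 in the F test, 4 in wildtype 4xLPS against PBS, 1 in APP23 1xLPS against PBS, 1 in APP23 4xLPS against 1xLPS, 4 in APP23 PBS against wildtype PBS, 2 and 1 between genotypes after 1xLPS and 4xLPS, and 2 and 3 in the interactions with 1xLPS and 4xLPS. Without the trend, or with libraries centred on their medians, the F test called 1. Without entries under the lower quartile, APP23 PBS against wildtype PBS called 1, since Mrps28 was filtered out. Fitting only the 2 groups compared called 3 in wildtype 4xLPS against PBS and 1 between genotypes after 1xLPS; such fits find none of the empty directions.

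Leaving out each library in turn gave 0 to 1 members in the F test, 0 to 2 in APP23 PBS against wildtype PBS, and 0 in the other 10 comparisons. The correction was made with all libraries, so leaving one out does not undo its part in it.

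Replicate numbers are shared between groups. Over 79 same-numbered pairs the correlation of deviations ran from -0.378 to 0.283 (median 0.0359), 17 were over 0.1, and 3 of 39 libraries correlated best with their own number, so the numbers were not taken to pair libraries. With the replicate block, the F test called 4, wildtype 4xLPS against PBS 2, APP23 4xLPS against 1xLPS 1, APP23 1xLPS against wildtype 1xLPS 2, and the interactions 2 each; that fit found only 1 empty direction. A block with the 9 directions kept, chosen after seeing the data, called 0 throughout, with adjusted p of 0.107 for Mrpl38 and 0.139 for Mrps28 in APP23 PBS against wildtype PBS. Each lone difference is limited by the group sizes of 4 to 9 and by an unknown depth.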
